A study of Mus musculus with 41 samples.

Results

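Inflammatory cytokines of the IL-1, IL-6 and TNF families and their receptors were followed in bone from young mice, old mice and old mice given a drug that removes senescent cells. The group holds 10 genes, chosen by symbol (Il1a, Il1b, Il1rn, Il1r1, Il18, Il6, Lif, Il6ra, Il6st and Tnf) out of 43346 genes in the table of read counts. RNA came from tibia shafts that had been spun to remove marrow, 1 bone sample for each of 41 female mice of the p16-INK-ATTAC line on a C57BL/6 background. All 3 groups carried the transgene, in which a p16Ink4a promoter drives a protein that kills the cell once AP20187 (AP) makes it dimerize. The young group (n = 12) is labelled as 6 to 12 months old (6 months in the methods of the study) and also carries the label of vehicle, but whether it was injected is not given in the sources used here. The old + vehicle group (n = 13) and the old + AP group (n = 16) were 20 months old at the start and were injected 2 times a week for 4 months with vehicle or with AP at 10 mg per kg, so that they were 24 months old at the end according to the methods of the study. Old + vehicle against young mice therefore compares ages, which cannot be told apart from the injections if the young mice had none, old + AP against old + vehicle mice compares the drug with its vehicle at 1 age, and old + AP against young mice differs in both.

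IL-1 alpha and IL-1 beta bind the same receptor, IL-1R1, and the antagonist encoded by Il1rn occupies that receptor without signalling. IL-18 is an IL-1 relative that, like IL-1 beta, is cut to its active form by caspase-1. IL-6 binds its own receptor chain and LIF binds a different one, and both then signal through the shared chain gp130, encoded by Il6st, to JAK kinases and STAT3. TNF and IL-1 both activate NF-kB, and in bone these cytokines are known for acting on osteoclasts and osteoblasts and as parts of the secretory phenotype of senescent cells.

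Each library held between 37028959 and 75942717 reads counted on genes, with a median of 47774880, and levels are given as CPM, the read count of a gene scaled to the size of its library by TMM normalization. Cdkn2a, whose p16Ink4a product marks the cells the drug targets, had a median of 0.587 CPM in young, 2.20 CPM in old + vehicle and 1.10 CPM in old + AP mice, with overlapping ranges. Bone cell markers were present in every library, with 6 osteoblast genes summing to 3052 to 40215 CPM. Marrow and muscle RNA was present in every library as well, since 10 neutrophil genes summed to 4839 to 33631 CPM and 5 skeletal muscle genes to 5279.8 to 77658 CPM. By median, the muscle genes summed to more than the osteoblast genes in old + vehicle (46916 against 18692 CPM) and old + AP mice (31153 against 14953 CPM). In young mice they summed to less (27820 against 30113 CPM). In such bulk RNA, fewer cells of a type and less RNA per cell cannot be told apart. Old + vehicle mouse 16 and old + AP mouse 19 stood apart among the members. Of all 41 mice, mouse 19 was highest in 5 members (Il1a, Il1b, Il1rn, Il18 and Il6ra) and lowest in Il6st, whereas mouse 16 was highest in Il6 and Il6st and lowest in Il1rn, Il6ra and Tnf. Mouse 19 also had the highest summed neutrophil, monocyte, erythroid and mast cell markers of the old + AP group, and mouse 16 the lowest of the old + vehicle group. Calls of members that rest on either mouse are given with and without it.

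The promoters of Il1a, Il1b and Il6 are shown because Il1a and Il6 were the members called in old + vehicle against young mice (Il6 only with mouse 16 included), and Il1b is the neighbour of Il1a on chromosome 2, with 54597 bases between them, and did not pass the same test. Each line holds the 250 bases before the transcription start that RefSeq gives on GRCm38.p6, 5' to 3' on the strand of the gene, with matches to the searched motifs in capitals. The windows are chr2:129309973-129310222 (minus strand) for Il1a, chr2:129371140-129371389 (minus strand) for Il1b and chr5:30012864-30013113 (plus strand) for Il6, whose RefSeq start lies upstream of its start in the count table.
Il1a: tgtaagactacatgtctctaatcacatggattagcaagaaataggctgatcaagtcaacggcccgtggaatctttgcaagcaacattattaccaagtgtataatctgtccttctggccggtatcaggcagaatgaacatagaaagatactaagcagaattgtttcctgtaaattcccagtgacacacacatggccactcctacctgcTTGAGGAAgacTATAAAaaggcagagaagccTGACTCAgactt
Il1b: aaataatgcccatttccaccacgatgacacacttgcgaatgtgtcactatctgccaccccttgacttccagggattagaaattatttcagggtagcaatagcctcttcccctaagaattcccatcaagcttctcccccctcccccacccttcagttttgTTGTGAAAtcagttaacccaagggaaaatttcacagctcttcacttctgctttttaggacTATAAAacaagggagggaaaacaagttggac
Il6: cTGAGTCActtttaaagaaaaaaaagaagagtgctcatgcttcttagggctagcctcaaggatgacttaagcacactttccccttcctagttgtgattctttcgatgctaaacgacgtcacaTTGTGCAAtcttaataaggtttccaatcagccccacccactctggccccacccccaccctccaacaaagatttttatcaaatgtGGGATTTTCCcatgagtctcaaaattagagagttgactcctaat
Both IL-1 promoters hold a TATA box (TATAAA), at -32 to -27 in Il1a and at -31 to -26 in Il1b, which 12.4% of 32851 promoters of this length also hold. The 7-base AP-1 motif (TGANTCA) is found in Il1a at -12 to -6 and in Il6 at -249 to -243, against 6.75% of all promoters, and not in the window of Il1b. All 3 windows match the common C/EBP motif (TTNNGNAA, 36.8% of promoters). The NF-kB consensus is found in Il6 at -44 to -35 (3.9% of promoters). A STAT motif (TTCNNNGAA, 7.02% of promoters) and the CRE (TGACGTCA, 1.55% of promoters) were searched too and are not in these windows. Motifs were searched on both strands, none of these matches overlap, and a match describes letters only.

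Per length, the members had the same order by median in all 3 groups. Il6st was highest, with a median of 30.7 CPM per kb in young mice, and lay above the next gene, Il1b (9.38 CPM per kb), in 12 of 12 mice. Il1b and Il6ra (9.29 CPM per kb) could not be separated, as Il1b was the higher in only 8 of 12 mice. Below them came Il18 (6.20), Il1r1 (5.201), Il1rn (4.43), Tnf (2.34), Lif (2.13) and Il1a (1.62 CPM per kb), where Tnf lay above Lif in 7 of 12 mice, Lif above Il1a in 8 and Il18 above Il1r1 in 9, so that these neighbours too lay within their spread of each other. Il6 was lowest, at 0.302 CPM per kb, below Il1a in 12 of 12 young mice. In old + vehicle mice Il1a stood at 0.775 CPM per kb and lay above Il6 (0.472 CPM per kb) in 11 of 13 mice. The gp130 chain was thus the most abundant of these mRNAs and IL-6 the least in every group.

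**Figure D1:**
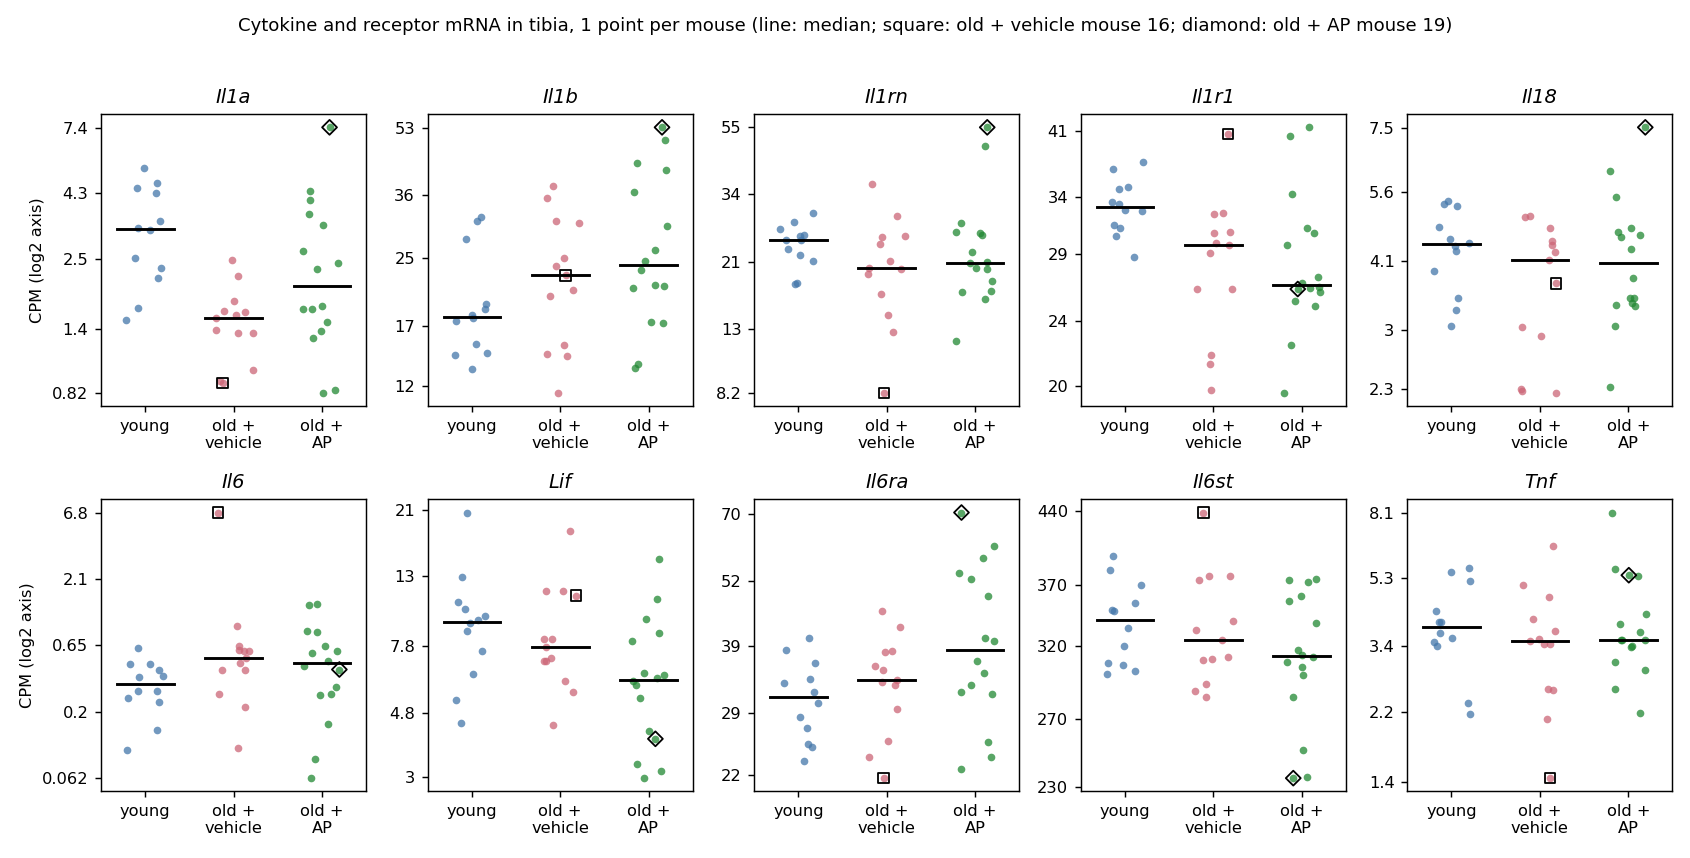
Level of each member in CPM (log2 axis) in young (n = 12), old + vehicle (n = 13) and old + AP (n = 16) mice, with 1 point per mouse and a line at the group median. Il1a is lower in old + vehicle mice (median 1.53 against 3.19 CPM in young mice), and a single old + vehicle mouse stands at 6.81 CPM in Il6.

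All 10 members were among the 19292 genes tested by edgeR's quasi-likelihood test, and a call needed both an adjusted p (Benjamini-Hochberg, over all genes tested) under 0.05 and a change of more than 0.5 on the log2 scale. In old + vehicle against young mice 2 of 10 members were called, Il6 as higher and Il1a as lower, beside 9.06% of all genes tested (4.3% higher and 4.76% lower). Over the members the log2 fold changes had a median of -0.13, and over all genes of 0.01. Between old + AP and young mice 0 of 10 were called by edgeR, beside 8.58% of all genes (3.73% higher and 4.85% lower), with 4 members at an unadjusted p under 0.05. DESeq2 made 0 calls there, beside 8.68% of the 22912 genes it tested. Between the old groups 0 of 10 were called by edgeR, beside 0.0726% of all genes (0.0259% higher and 0.0467% lower), with 2 members at an unadjusted p under 0.05, and DESeq2 called 1, Il1a, beside 1.27% of the 16022 genes it tested. Of all 19292 genes, 6141 had an unadjusted edgeR p under 0.05 in old + vehicle against young mice. The numbers were 6220 in old + AP against young and 4620 in old + AP against old + vehicle mice. All counts at an unadjusted p under 0.05 given here and below are to be read beside these. The number of all genes called by edgeR between the old groups was 14, and from 0 (7 of the 41 fits, among them those without old + vehicle mouse 16 or old + AP mouse 19) to 405 (2.1%, without old + AP mouse 9) with a mouse left out. The ranges of the compared groups overlapped for every member in each comparison, and overlap was not counted over all genes. Old + vehicle mice enter both the comparison with young mice and that with old + AP mice, and the 12 young mice enter both comparisons with age.

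**Figure D2:**
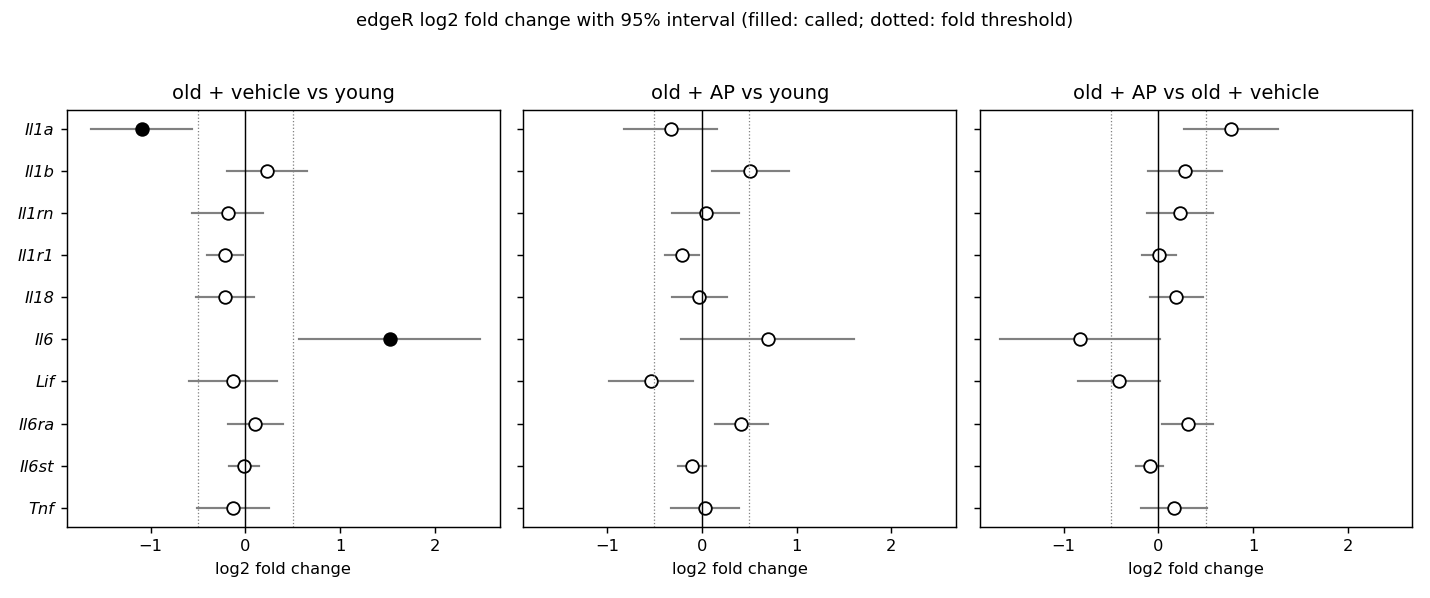
Log2 fold change of the 10 members by edgeR with its 95% interval in the 3 comparisons. Filled points, Il1a (-1.10) and Il6 (1.52) in old + vehicle against young mice, passed both thresholds, and dotted lines mark a log2 fold change of 0.5 in either direction.

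Il1a (ENSMUSG00000027399, chromosome 2, 129299610 to 129309972), which encodes IL-1 alpha, was lower in old + vehicle than in young bone. It ranged from 1.501 to 5.29 CPM in young mice (median 3.19), from 0.892 to 2.47 CPM in old + vehicle mice (median 1.53) and from 0.823 to 7.42 CPM in old + AP mice (median 1.99). All 13 old + vehicle mice lay below the young median and 6 of them below every young mouse. The old + AP mice spread over both other groups, and 6 of 16 were above the highest old + vehicle mouse. Il1a fell by 1.10 on the log2 scale in old + vehicle against young mice (SE 0.27, edgeR adjusted p = 0.00336). With each mouse left out in turn the adjusted p of that difference ranged from 0.00109 to 0.00777. Old + AP against young mice gave a log2 fold change of -0.33 (SE 0.25, edgeR adjusted p = 0.379). Old + AP exceeded old + vehicle mice by 0.77 on the log2 scale (SE 0.25), which did not pass in edgeR (adjusted p = 0.0825) and passed in DESeq2 (adjusted p = 0.0452). This last call was also gained in edgeR without old + vehicle mouse 2 (adjusted p = 0.0448), without old + AP mouse 9 (adjusted p = 0.0454) or without old + AP mouse 10 (adjusted p = 0.0465). In these fits the share of all genes called was 1.62%, 2.1% and 1.25%. Without old + AP mouse 19, the highest mouse, the value was 0.56 (edgeR adjusted p = 0.211). The gene Gm14023 overlaps Il1a over 8217 bases, with 2308 reads in all mice beside 5161 for Il1a, and the strand setting of the counting was not given in the sources used here.

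**Figure D3:**
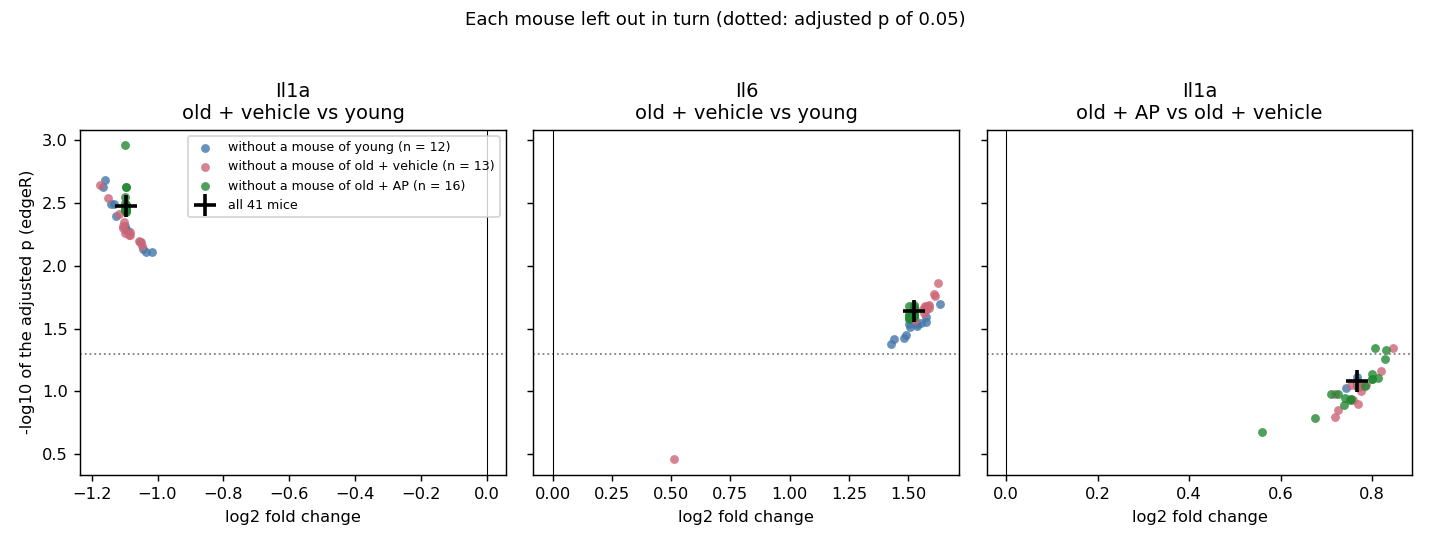
Log2 fold change and -log10 of the edgeR adjusted p for Il1a and Il6 in old + vehicle against young mice and for Il1a in old + AP against old + vehicle mice, with 1 point for each mouse left out, coloured by its group, and a cross for all 41 mice. All points of Il1a with age lie past the dotted line at 0.05, and a single point of Il6, without old + vehicle mouse 16, lies at a log2 fold change of 0.51.

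Across mice, Il1a varied with genes of megakaryocytes and platelets, the marrow cells that make and become blood platelets. The 3 genes with the pattern most like Il1a were Alox12, the platelet-type lipoxygenase (Spearman rho = 0.94), Tubb1, the tubulin of the platelet marginal band (rho = 0.93), and Gp1ba, a chain of the platelet receptor for von Willebrand factor (rho = 0.93), each over 41 mice after subtraction of group means. Of these, 2 were called with age too, Alox12 at a log2 fold change of -0.94 (edgeR adjusted p = 0.00366) and Tubb1 at -1.20 (edgeR adjusted p = 0.00296), and Gp1ba stood at -0.80 (edgeR adjusted p = 0.0509). A list of 11 megakaryocyte and platelet genes (Pf4, Ppbp, Itga2b, Itgb3, Gp1ba, Gp1bb, Gp5, Gp6, Gp9, Tubb1 and Treml1) was added after this likeness had been seen. It holds Tubb1 and Gp1ba, 2 of the 3 genes named above. Its calls and its correlation with Il1a are therefore not independent of that likeness. In old + vehicle against young mice 9 of the 11 were called lower and 0 higher (median log2 fold change -0.93), and 7 to 10 with a mouse left out. Of the same 11 genes 1, Gp9, was called lower in old + AP against young mice (median -0.32), with 0 called without young mouse 32, 38, 39 or 41 and 2 without old + AP mouse 19. In old + AP against old + vehicle mice edgeR called 0 of 11 with 8 at an unadjusted p under 0.05 (median 0.53), and 4 without old + vehicle mouse 2, old + AP mouse 9 or old + AP mouse 10.

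The summed level of this list ranged from 708 to 2145 CPM in young mice, from 438 to 1012 CPM in old + vehicle mice and from 510.5 to 2601 CPM in old + AP mice. Its lowest old + vehicle mouse was mouse 16 and its highest old + AP mouse was mouse 19, which were also the lowest and the highest of their groups in Il1a. For each 1000 CPM of the list there was a median of 2.66 CPM of Il1a in young mice (1.74 to 3.10), 2.12 CPM in old + vehicle mice (1.48 to 2.54) and 2.506 CPM in old + AP mice (1.22 to 3.06). The ranges of this ratio overlapped in all 3 groups. Spearman's rho between Il1a and the summed list was 0.90 over the 41 mice with group means subtracted (Pearson r = 0.90, and 0.88 without the 2 mice farthest from the median of Il1a). Both values of a point come from the same library, and the list followed from the likeness to Il1a. The correlation is thus a description. The part of these cells in the lower Il1a of old + vehicle mice was not tested.

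**Figure D4:**
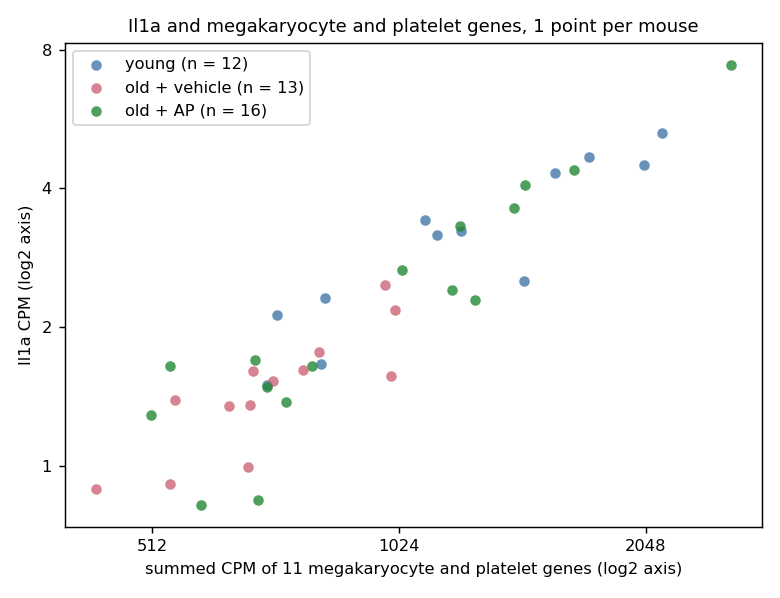
Il1a in CPM against the summed CPM of 11 megakaryocyte and platelet genes (both log2 axes), 1 point per mouse, coloured by group. The 13 old + vehicle mice lie in the lower left, from 438 to 1012 CPM of the list, and old + AP mouse 19 lies at the upper right end.

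Il1b (ENSMUSG00000027398, chromosome 2, 129364570 to 129371139), which encodes the secreted IL-1 beta, passed the test in no comparison. It ranged from 13.2 to 31.7 CPM in young mice (median 17.9), from 11.5 to 37.98 CPM in old + vehicle mice (median 22.7) and from 13.3 to 53.1 CPM in old + AP mice (median 24.04). The groups overlapped widely, although 5 of 16 old + AP mice were above every young mouse. Its log2 fold change was 0.23 in old + vehicle against young mice (SE 0.22, edgeR adjusted p = 0.4999) and 0.28 in old + AP against old + vehicle mice (SE 0.20, edgeR adjusted p = 0.387). Old + AP against young mice gave 0.51 (SE 0.21, edgeR adjusted p = 0.0806). This passed without young mouse 34 (log2 fold change 0.59, edgeR adjusted p = 0.0462), without old + AP mouse 9 (adjusted p = 0.0483) or without old + AP mouse 27 (adjusted p = 0.0448), and stood at 0.41 without old + AP mouse 19 (edgeR adjusted p = 0.167). The genes most like Il1b across mice were Osm, which encodes the gp130 cytokine oncostatin M (rho = 0.77), Dazap2 (rho = 0.76) and Tpd52 (rho = 0.76). The antisense gene Il1bos overlaps Il1b, with 816 reads in all mice beside 49936 for Il1b.

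Per length, Il1b exceeded Il1a by a median of 5.69 times in young, 15.4 times in old + vehicle and 10.8 times in old + AP mice. The lowest and highest mice were 3.30 and 12.7 in young, 8.60 and 32.2 in old + vehicle and 7.41 and 39.6 in old + AP mice, so that the ranges overlapped. The balance of the 2 IL-1 mRNAs thus leaned further to Il1b in the old groups by median.

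Il1rn, the receptor antagonist, ranged from 17.95 to 29.7 CPM in young mice (median 24.5), from 8.22 to 36.5 CPM in old + vehicle mice (median 20.0) and from 11.9 to 55.0 CPM in old + AP mice (median 20.9). Its young mice were the most alike, with a coefficient of variation of 15.2% beside 35.2% and 46.4% in the old groups. The 95% intervals of its log2 fold changes ran from -0.56 to 0.19 in old + vehicle against young mice, from -0.32 to 0.40 in old + AP against young mice and from -0.12 to 0.58 in old + AP against old + vehicle mice. No comparison passed the test. Per length there was a median of 2.82 Il1rn for 1 Il1a in young (1.74 to 4.26), 4.94 in old + vehicle (3.28 to 8.10) and 3.71 in old + AP mice (2.44 to 7.37). For 1 Il1b the median of Il1rn went the other way, at 0.423 in young, 0.346 in old + vehicle and 0.341 in old + AP mice. The ranges of both ratios overlapped between groups. The genes most like Il1rn were Lpin2 (rho = 0.86), H2-T24 (rho = 0.85) and the water and glycerol channel gene Aqp9 (rho = 0.83).

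Il1r1, the signalling receptor of both IL-1 forms, did not pass the test in any comparison. It ranged from 28.7 to 37.5 CPM in young mice (median 33.1), from 19.8 to 40.7 CPM in old + vehicle mice (median 29.8) and from 19.6 to 41.4 CPM in old + AP mice (median 26.6). Of the old mice, 12 of 13 given vehicle and 13 of 16 given AP lay below the young median, yet 1 old + vehicle mouse (mouse 16) and 2 old + AP mice were above the young range. The log2 fold change was -0.22 in old + vehicle against young mice (SE 0.10, edgeR adjusted p = 0.119) and -0.21 in old + AP against young mice (SE 0.09, edgeR adjusted p = 0.112). Between the old groups it was 0.01, with a 95% interval from -0.17 to 0.19. Osmr, the receptor chain of oncostatin M, was the gene most like it (rho = 0.71), followed by Atp8b1 (rho = 0.69) and Svep1 (rho = 0.68).

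Il18 ranged from 3.05 to 5.38 CPM in young mice (median 4.42), from 2.26 to 5.03 CPM in old + vehicle mice (median 4.12) and from 2.31 to 7.52 CPM in old + AP mice (median 4.06). No old + vehicle mouse exceeded the young range and 5 of 13 lay under it. The log2 fold changes of -0.22 in old + vehicle against young mice (SE 0.15, edgeR adjusted p = 0.347), -0.02 in old + AP against young mice and 0.19 in old + AP against old + vehicle mice did not pass. Its likest genes were the potassium channel gene Kcnj10 (rho = 0.80), the adhesion molecule gene Vcam1 (rho = 0.80) and Spic, the transcription factor of iron-recycling macrophages (rho = 0.79).

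Among the other genes of the IL-1 family and its processing, 17 of 25 listed genes were tested, and edgeR called 0 in each of the 3 comparisons. With a mouse left out this held in old + vehicle against young and in old + AP against old + vehicle mice, while in old + AP against young mice 8 of 41 fits made calls, up to 3 without old + AP mouse 27. Without mouse 16, edgeR called Il1f9 there (log2 fold change 0.58, adjusted p = 0.0339, and 0.0523 with all mice), a gene named after its values were seen. At an unadjusted p under 0.05 there were 1 in old + vehicle against young, 6 in old + AP against young and 3 in old + AP against old + vehicle mice, and the median log2 fold changes were 0.03 (below 0 in 5 of 41 fits with a mouse left out), 0.27 and 0.19. Of 10 IL-1 and TLR adaptors, edgeR likewise called 0 in all 3 comparisons, with 3, 5 and 1 at an unadjusted p under 0.05.

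Il6 (ENSMUSG00000025746, chromosome 5, 30013161 to 30019968), the best known cytokine of the senescent secretory phenotype, was read at low levels, and its difference with age rested on 1 mouse. It ranged from 0.1004 to 0.613 CPM in young mice (median 0.329, 4 to 29 reads), from 0.104 to 6.81 CPM in old + vehicle mice (median 0.513) and from 0.0615 to 1.35 CPM in old + AP mice (median 0.470). The value of 6.81 CPM (290 reads) belonged to mouse 16, and the next old + vehicle mouse stood at 0.904 CPM. Both old medians lay above the young median, the ranges overlapped, and 10 of 13 old + vehicle and 10 of 16 old + AP mice lay above the young median. Il6 rose by 1.52 on the log2 scale in old + vehicle against young mice (SE 0.49, edgeR adjusted p = 0.0230). Without mouse 16 the value was 0.51 (edgeR adjusted p = 0.346). Its log2 fold change was 0.70 in old + AP against young mice (SE 0.47, edgeR adjusted p = 0.308). Between the old groups it was -0.83 (SE 0.43, edgeR adjusted p = 0.233), and 0.18 without mouse 16 (adjusted p = 0.777). The genes most like Il6 were Muc1 (rho = 0.57), Rrp15 (rho = 0.56) and Lsm10 (rho = 0.55), weaker likenesses than those of the other members.

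Mouse 16 stood out again in genes that IL-1, IL-6 and TNF are known to induce. Of 19 such genes tested, 8 were called higher and 0 lower in old + vehicle against young mice (median log2 fold change 0.40), and without mouse 16 there were 3 higher (Cxcl2, Fosl1 and Nos2) and 1 lower (Cxcl5), the names beyond the 3 largest changes being chosen after their values were seen. Fosl1, a subunit of AP-1, rose by 2.96 on the log2 scale (SE 0.62, edgeR adjusted p = 0.000674), and by 1.87 without mouse 16 (adjusted p = 0.00581). The neutrophil chemokine Cxcl1 rose by 2.83 (SE 0.72, edgeR adjusted p = 0.00455), but mouse 16 stood at 11.9 CPM and the next old + vehicle mouse at 0.423 CPM, and without it the value was 0.38 (adjusted p = 0.579). A second neutrophil chemokine, Cxcl2, rose by 2.41 (SE 0.52, edgeR adjusted p = 0.00105), with all 13 old + vehicle mice above the young median of 0.191 CPM, and by 2.11 without mouse 16 (adjusted p = 0.00339). Mouse 16 was also the highest old + vehicle mouse in Ccl2 (24.3 CPM), Ccl7 (25.5 CPM), Ptgs2 (23.2 CPM), Saa3 (17.1 CPM) and Nos2 (7.28 CPM). Without mouse 16 the log2 fold change with age was 1.75 for Saa3 (edgeR adjusted p = 0.0657) and 1.04 for Ccl7 (adjusted p = 0.0594). It was 0.87 for Ccl2 (adjusted p = 0.0690) and 0.43 for Ptgs2 (adjusted p = 0.573). In Nos2 all 13 old + vehicle mice lay above every young mouse. Its log2 fold change without mouse 16 was 0.92 (edgeR adjusted p = 0.000103). In old + AP mice a comparable set of genes was highest in mouse 10, with Ptgs2 at 14.2 CPM, Ccl2 at 9.12 CPM and Saa3 at 35.5 CPM, and this mouse was second in Il6, at 1.33 CPM.

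Of the 19 response genes 4 were called higher and 0 lower in old + AP against young mice, and 6 higher without mouse 16, which enters the shared estimate of the spread. The acute phase gene Saa3 rose by 2.75 on the log2 scale (SE 0.69, edgeR adjusted p = 0.00501), where mice 10 and 24, at 35.5 and 34.9 CPM, held 72.5% of the total of the 16 old + AP mice. Its median was 1.36 CPM in old + AP and 0.854 CPM in young mice, and the log2 fold change was 2.18 without mouse 10 (edgeR adjusted p = 0.0130) and 2.20 without mouse 24 (adjusted p = 0.0152). On the same scale Fosl1 rose by 2.33 (SE 0.60, edgeR adjusted p = 0.00640), and by 1.99 without mouse 10 (adjusted p = 0.0136). Cxcl2 rose by 1.96 (SE 0.51, edgeR adjusted p = 0.00614), and by 1.47 without mouse 29 (adjusted p = 0.0192), the highest of the group in that gene at 4.46 CPM. The fourth was Nos2, the inducible nitric oxide synthase, at 0.79 (SE 0.16, edgeR adjusted p = 0.000542). Between the old groups edgeR called 0 of 19, with 5 at an unadjusted p under 0.05 (median log2 fold change -0.24), and 2 without old + AP mouse 10. That median turned to 0.12 without mouse 16 and was below 0 in the other 40 fits. Without mouse 16 the log2 fold changes between the old groups were 0.39 for Cxcl1, 0.12 for Ccl7, -0.02 for Ccl2 and 0.97 for Ptgs2, beside -2.05, -1.002, -0.88 and -0.52 with all mice, and edgeR called none of these 4 genes, named after their values were seen, in either fit.

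Il6ra, the receptor chain that binds IL-6, was called in no comparison, although its difference between old + AP and young mice had an adjusted p under 0.05 with a change below the fold threshold. It ranged from 23.4 to 40.4 CPM in young mice (median 31.1), from 21.7 to 45.5 CPM in old + vehicle mice (median 33.5) and from 22.6 to 70.3 CPM in old + AP mice (median 38.2). Of the old + AP mice, 7 of 16 lay above every young mouse and 6 of 16 above every old + vehicle mouse. The log2 fold change was 0.42 in old + AP against young mice (SE 0.14, edgeR adjusted p = 0.0391), and 0.33 without old + AP mouse 19 (adjusted p = 0.0943). It was 0.31 in old + AP against old + vehicle mice (SE 0.14, edgeR adjusted p = 0.172) and 0.11 in old + vehicle against young mice (SE 0.15, edgeR adjusted p = 0.670). The genes most like Il6ra were Fmnl1 (rho = 0.96), Myo1g (rho = 0.95) and Arhgap30 (rho = 0.95), genes of the actin cytoskeleton that are used by blood cells. In old + AP against young mice, 2 of 5 monocyte and 3 of 10 neutrophil markers were also called higher (with a mouse left out 1 to 6 neutrophil markers, fewer than 3 in 17 of 41 fits and 6 without old + AP mouse 27), and the summed monocyte markers ranged from 401 to 794 CPM in young and from 454 to 1495 CPM in old + AP mice. The part of these cells in the Il6ra values was not tested.

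Il6st, the shared gp130 chain, had the narrowest intervals of the members. It ranged from 300.2 to 396 CPM in young mice (median 341), from 284 to 438 CPM in old + vehicle mice (median 325) and from 235 to 374 CPM in old + AP mice (median 313). The lowest value belonged to mouse 19 and the highest to mouse 16. The 95% intervals of its log2 fold changes, from -0.17 to 0.14 in old + vehicle against young mice, from -0.25 to 0.04 in old + AP against young mice and from -0.24 to 0.05 in old + AP against old + vehicle mice, all lay within the fold threshold. Its likest genes were Fam13c (rho = 0.85), Mkl2, a cofactor of serum response factor (rho = 0.84), and Unc13b (rho = 0.83).

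Lif, the gp130 cytokine leukaemia inhibitory factor, ranged from 4.44 to 20.6 CPM in young mice (median 9.28), from 4.39 to 18.03 CPM in old + vehicle mice (median 7.76) and from 2.98 to 14.7 CPM in old + AP mice (median 6.10). Of the old + AP mice 13 of 16 lay below the young median and 5 below every young mouse. The log2 fold change in old + AP against young mice was -0.54 (SE 0.23, edgeR adjusted p = 0.0895). Without old + AP mouse 27 it was -0.66 and passed (adjusted p = 0.0253), and without young mouse 33, the highest of all, it was -0.38 (adjusted p = 0.232). It was -0.13 in old + vehicle against young mice (SE 0.24, edgeR adjusted p = 0.758) and -0.41 in old + AP against old + vehicle mice (SE 0.22, edgeR adjusted p = 0.245). Lif was most like Dusp4 (rho = 0.86), Mst1r (rho = 0.85) and Cdk18 (rho = 0.83). Of the marker lists it varied most with that of osteoclasts (rho = 0.80), followed by those of osteoblasts (rho = 0.61) and osteocytes (rho = 0.42). Of 7 osteoclast markers, edgeR called 0 in each of the 3 comparisons, with 0, 0 and 2 at an unadjusted p under 0.05, and their sum ranged from 1420 to 4627 CPM in young, from 1089 to 8072 CPM in old + vehicle and from 739 to 5927 CPM in old + AP mice. Of 6 osteoblast markers, edgeR called 0 higher in any comparison, and 2 lower in old + vehicle against young mice (1 to 2 with a mouse left out). In old + AP against young mice 4 were called lower, and 3 to 5 with a mouse left out. The part of osteoclasts or osteoblasts in the Lif values was not tested.

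Among the other genes of IL-6 family signalling, 19 of 20 listed genes were tested, and 2 were called in old + vehicle against young mice, or 3 in 8 of 41 fits with a mouse left out. Socs3, the feedback inhibitor induced by STAT3, rose by 0.92 (SE 0.20, edgeR adjusted p = 0.00114), from a median of 17.004 CPM in young to 30.7 CPM in old + vehicle mice, all 13 of which lay above the young median. Lifr, the receptor chain that binds LIF, fell by 0.70 (SE 0.18, edgeR adjusted p = 0.00560), from a median of 579.5 to 309 CPM. Socs3 was thus higher and Lifr lower with age while Il6st and Lif did not pass the test. In old + AP against young mice Socs3 rose by 0.74 (SE 0.19, edgeR adjusted p = 0.00661), the IL-12 relative Il27 rose by 0.82 (SE 0.27, adjusted p = 0.0303) and Lifr fell by 0.77 (SE 0.17, adjusted p = 0.00172). The calls numbered 3 with all mice and 2 to 4 with a mouse left out. Il27 stood at 0.74 in old + vehicle against young mice (edgeR adjusted p = 0.0585), and at 0.81 without mouse 16 (adjusted p = 0.0352). Between the old groups edgeR called 0 of the 19, with 4 at an unadjusted p under 0.05 (median 0.03, and below 0 without old + AP mouse 24 and in 1 other of the 41 fits with a mouse left out).

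Tnf, the founding member of its family, showed no difference that passed. It ranged from 2.18 to 5.67 CPM in young mice (median 3.84), from 1.43 to 6.54 CPM in old + vehicle mice (median 3.50) and from 2.19 to 8.13 CPM in old + AP mice (median 3.53). Each group spanned most of the range of the others. The log2 fold changes were -0.13 in old + vehicle against young mice (SE 0.19, 95% interval -0.51 to 0.25), 0.03 in old + AP against young mice (SE 0.18, interval -0.32 to 0.39) and 0.17 in old + AP against old + vehicle mice (SE 0.18, interval -0.19 to 0.52). Its likest genes were leukocyte genes, Cd52 (rho = 0.91), Milr1 (rho = 0.90) and Hcls1 (rho = 0.89). Of 17 other genes of the TNF family and its signalling, edgeR called 0 in each comparison, with 6, 4 and 4 at an unadjusted p under 0.05. Of 13 NF-kB subunits and inhibitors 1 was called in old + vehicle against young mice. This was Bcl3, which the study describes as a coactivator of NF-kB, and it rose by 0.57 (SE 0.16, edgeR adjusted p = 0.00955). Without old + vehicle mouse 2 or 14 or young mouse 32 or 40, 2 of the 13 were called. In the other 2 comparisons edgeR called 0 of the 13, with 5 in old + AP against young and 7 in old + AP against old + vehicle mice at an unadjusted p under 0.05, though 1 was called between the old groups in 7 of 41 fits with a mouse left out.

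Across the 41 mice, after subtraction of group means, the members differed in how they varied with each other and with cell markers. Of 45 pairs of members 14 had a Spearman rho above 0.5, and all of these joined Il1a, Il1b, Il1rn, Il18, Il6ra and Tnf. Within groups, rho was above 0.5 in all 14 of these pairs in old + AP mice (0.61 to 0.93), in 9 in young mice (0.27 to 0.77) and in 9 in old + vehicle mice (0.24 to 0.74), and in 6 pairs it was so in every group. Of the pairs with Il1b none was, and Il1b and Il6ra had a rho of 0.36 in young, 0.24 in old + vehicle and 0.84 in old + AP mice. Pearson's r was above 0.5 in 9 of the 14 without the 2 mice farthest from their group mean in the alphabetically first member of the pair. The likest pair was Il6ra and Tnf (rho = 0.83, r = 0.81), followed by Il1a and Il1rn (rho = 0.79, r = 0.77). Il6st ran against them, at rho = -0.66 with Il1rn and -0.65 with Il6ra. With Il1rn its rho was -0.16 within young, -0.65 within old + vehicle and -0.80 within old + AP mice. With Il6ra it was -0.55, -0.82 and -0.59. Lif had a rho of -0.31 to -0.071 with Il1a, Il1b, Il1rn, Il6ra and Tnf over all mice, but of -0.72 to -0.64 within old + AP mice, beside 0.063 to 0.41 in young and -0.18 to 0.47 in old + vehicle mice. Il6ra and Tnf varied most with the summed monocyte markers (rho = 0.93 and 0.88), Il1b and Il1rn did so more loosely (rho = 0.66 and 0.75), and Il6st varied most with the endothelial markers (rho = 0.73). Il6 followed no list, its highest rho being 0.23 with mast cell markers. All levels of a mouse share 1 library and 1 scaling, so that these correlations are descriptions.

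**Figure D5:**
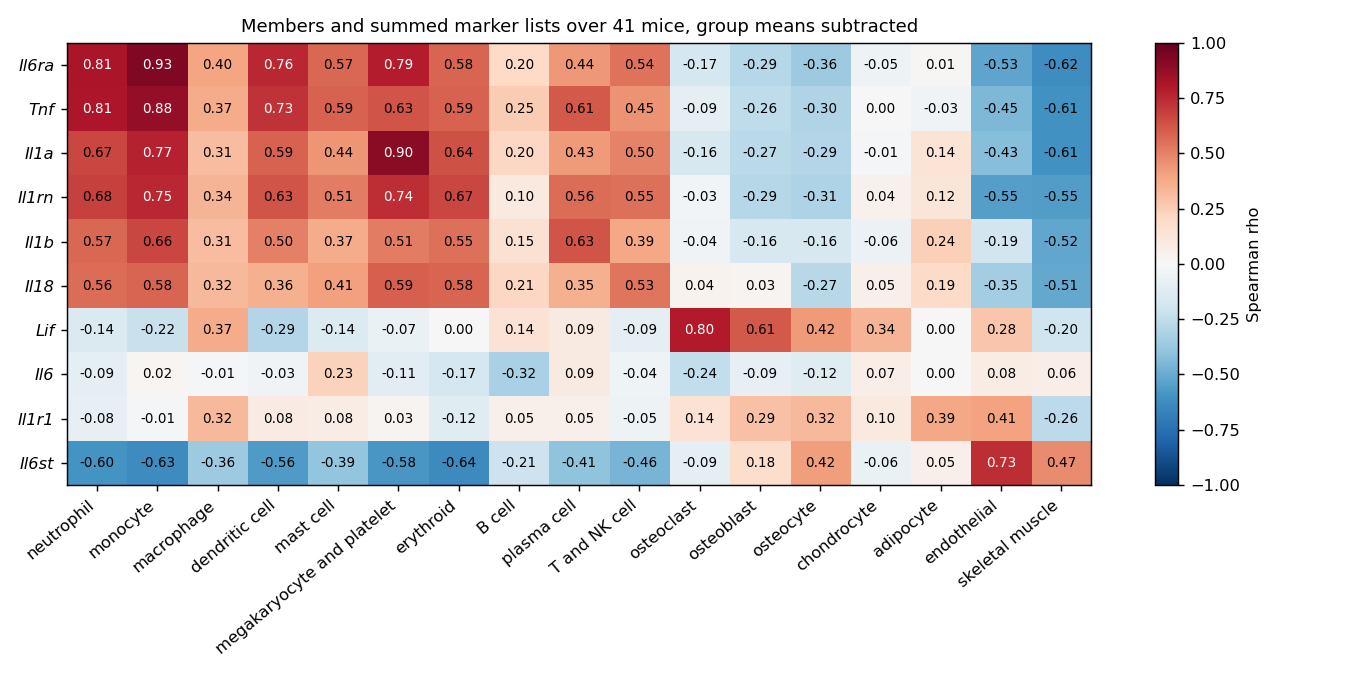
Spearman's rho between each member and the summed CPM of each of 17 marker lists over the 41 mice, on log2 CPM with group means subtracted, red for positive and blue for negative values. Il6ra, Tnf, Il1a, Il1rn, Il1b and Il18 are red across marrow cell lists and blue with skeletal muscle, Lif is highest with osteoclasts (0.80) and Il6st with endothelial markers (0.73).

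The marker lists themselves differed between young and old mice. In old + vehicle against young mice 5 of 5 B cell, 3 of 5 erythroid, 2 of 5 dendritic cell, 2 of 6 osteoblast, 1 of 8 macrophage and 1 of 4 chondrocyte markers were called lower and none of these lists held a gene called higher. Of the osteocyte markers 2 of 6 were higher and 1 lower, of the adipocyte markers 1 of 4 was higher and 1 lower, and of the skeletal muscle markers 1 of 5 was higher, a call that was lost in 29 of 41 fits with a mouse left out, that without mouse 16 among them. In old + AP against young mice 3 of 10 neutrophil, 2 of 5 monocyte, 2 of 5 mast cell and 3 of 6 T and NK cell markers were called higher. There 4 of 6 osteoblast markers and 1 each of the macrophage, B cell, erythroid, adipocyte and chondrocyte markers were lower, while the dendritic cell list had 2 higher and 1 lower and the osteocyte list 2 higher and 2 lower. Plasma cell, osteoclast and endothelial markers were not called in either comparison, and in old + AP against old + vehicle mice edgeR called 0 markers of any list. With a mouse left out, the 5 B cell calls in old + vehicle against young mice held in all 41 fits, while the other counts there moved by at most 1 gene, except that 2 T and NK cell markers were called without old + AP mouse 18 and that the megakaryocyte and platelet calls ranged from 7 to 10. In old + AP against young mice the neutrophil range of 1 to 6 is given with Il6ra, and B cell calls ranged from 0 (22 of 41 fits) to 3 (without old + AP mouse 3), T and NK cell calls from 1 (without old + AP mouse 18) to 4, and osteocyte calls from 2 (without old + AP mouse 4 or young mouse 32 or 36) to 4. Dendritic cell calls, higher and lower together, fell from 3 to 2 in 15 of 41 fits and rose to 4 without old + vehicle mouse 16. Osteoblast calls fell from 4 to 3 in 21 fits and rose to 5 without old + AP mouse 27. The genes closest to the threshold, named after their values were seen, were Itgax among the dendritic cell markers (edgeR adjusted p = 0.0452) and Alpl among the osteoblast markers (adjusted p = 0.0462). Their calls changed in 17 and 21 fits. There 1 mast cell marker was called without old + AP mouse 19 or young mouse 30, 3 erythroid markers without old + AP mouse 17 or 19, and 3 adipocyte markers without young mouse 40.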

How the data were processed

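RNA from 41 mice was sequenced on a HiSeq2000 and mapped to mm10, and the authors deposited raw read counts per gene, without normalization, together with gene lengths. The submitters' processing notes name TopHat2 2.0.6 and HTSeq among the tools. The annotation release and strand setting were not given in the sources used here. All 41 count columns were used, grouped by the sample labels. Any 2 mice of a group differed by at least 33.2 times the variance of counting error. Whether the mice shared batches is not labelled.

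edgeR 4.0.16 (R 4.3.3) gave TMM-scaled CPM, an expression filter that kept 19292 genes, and quasi-likelihood tests in 1 model of 3 groups. Intervals are the log2 fold change plus or minus 1.96 SE. Likeness used log2(CPM + 0.1) with group means subtracted, over tested genes with a mean of at least 1 CPM. Named genes were the 10 members, up to 3 called genes each way per pathway list and comparison, and the 3 genes most like each member. The members and lists were chosen with earlier results of these data known. Marker lists covered 17 cell types, the megakaryocyte list being added later. Motifs were searched in RefSeq promoters, which all 10 members matched. Alternatives were DESeq2 1.42.0, its size factors, no filter, a robust fit, models of 2 groups, no fold threshold and each mouse left out in turn. The scripts were tested on simulated data. Some genes were left out of the lists and are not reported here.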

Additional observations from a re-analysis of the deposited data

How the results depend on the processing

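With DESeq2's size factors, no filter on low counts, a robust fit or models of 2 groups, every member kept its direction and its side of the thresholds in all 3 comparisons. DESeq2 called 1 member in old + AP against old + vehicle mice (Il1a, log2 fold change 0.77, adjusted p = 0.0452) where edgeR called 0. Without the fold threshold 1 member was called in old + AP against young mice (Il6ra), and the share of all genes at that setting was not computed. With each mouse left out in turn, 1 to 2 members were called in old + vehicle against young mice, 0 to 2 in old + AP against young mice and 0 to 1 in old + AP against old + vehicle mice. The share of all genes called in these fits was 7.75 to 10.2%, 7.36 to 10.0% and 0 to 2.1%, in the same order. Of 1230 fold changes computed with a mouse left out, 31 changed sign. These were Il6 in old + AP against old + vehicle mice, which ranged from -0.98 to 0.18 and was positive only without old + vehicle mouse 16, and 6 values near 0. In old + AP against young mice the ranges were -0.11 to 0.018 for Il18, -0.098 to 0.089 for Il1rn and -0.066 to 0.093 for Tnf. In old + vehicle against young mice they were -0.052 to 0.0070 for Il6st and -0.26 to 0.031 for Lif, and in old + AP against old + vehicle mice -0.036 to 0.059 for Il1r1. Young mouse 33 decided the sign for Lif. Depth limited Il6 most, which had 3 reads in its lowest mouse. No paired analysis was possible because the groups share no mouse numbers. The young and old mice could also differ in unlabelled batches, which cannot be told apart from age.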
